A study of Mus musculus with 26 samples.

Results

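The aminoacyl-tRNA synthetases were followed in the brown adipose tissue (BAT) of 26 mice. The 36 genes were taken from the count table by symbol, and they comprise 18 genes for cytosolic enzymes, 16 for mitochondrial enzymes, which carry the suffix 2, and 2, Gars and Kars, whose products serve both compartments. All 36 were among the 17286 genes tested, out of 50686 in the table. The rule used symbols alone, but the family was picked with earlier results of these data known.

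Aminoacyl-tRNA synthetases join each amino acid to its own tRNA, which makes them the enzymes that supply charged tRNA to the ribosome. Most amino acids have separate nuclear genes for the enzyme of the cytosol and for the enzyme that is imported into mitochondria, where it serves the few proteins of the respiratory chain that the mitochondrial genome encodes. Several cytosolic enzymes are held together in a multi-synthetase complex with scaffold proteins, and many synthetase genes are known targets of Atf4, a transcription factor whose translation rises when amino acids run short or when eIF2 is phosphorylated. In BAT, cold sets off heat production by uncoupled respiration.

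Male C57BL/6J mice aged 12 to 16 weeks were kept for 2 weeks at thermoneutrality, which the sample labels give as 30 °C. Of the mice that stayed there, 7 were control littermates (WT in the labels) and 7 carried a fat-specific deletion of Afadin (KO), and 5 control and 7 KO mice then spent 6 h at 5 °C. The knockout combined Adiponectin-Cre, which is active in white as well as brown adipocytes, with floxed Mllt4, the gene now named Afdn, and such mice are called FAKO. The mice were housed singly. Whether control littermates carried Cre, and which mice shared a litter, was not given in the sources used here.

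Total counts ran from 12705969 to 25732258 per mouse, and every member had at least 41 counts in every mouse. Afdn had 151 to 214 normalised counts (CPM) in control mice and 154 to 231 in the libraries labelled KO at 30 °C, with a log2 fold change of -0.01 (adjusted p = 0.992 in edgeR, SE 0.08), so groups are named by their labels. After cold it had 67.9 to 79.2 CPM in control mice and 53.3 to 65.3 in FAKO mice (log2 fold change -0.33, adjusted p = 0.116 in edgeR, SE 0.09). Of 8 brown adipocyte markers, 4 rose with cold in control mice, with Ucp1 and Ppargc1a at log2 fold changes of 4.02 and 4.07, and 2 fell, Adipoq and Prdm16, at -0.77 and -0.66. The summed level of 6 skeletal muscle markers ran from 6.26 to 5137 CPM in control mice at 30 °C, from 4.07 to 1411 in FAKO mice at 30 °C, from 0.815 to 4475 in control mice after cold and from 1.63 to 7039 in FAKO mice after cold, and 0 of 6 passed the test with cold in either genotype. The endothelial markers summed to 421 to 528 CPM in control mice at 30 °C and to 690 to 788 after cold, against 466.3 to 595 and 594 to 801 in FAKO mice. Of these 5 markers, 3 rose and 2 fell with cold in control mice, and 3 rose and 1 fell in FAKO mice. Of the 4 neutrophil markers tested, 3 rose with cold in control mice and 4 in FAKO mice, and the list summed to 1.81 to 6.10 CPM in control mice at 30 °C and 5.79 to 12.2 after cold, against 1.45 to 3.65 and 5.32 to 61.6 in FAKO mice. Ly6g, which defines neutrophils and was too low to test, was at 0 in every mouse at 30 °C and at most at 0.169 CPM after cold. In control mice 1 of 6 macrophage markers rose and 3 fell, and 3 of 6 lymphocyte and 1 of 4 Schwann cell markers fell. In FAKO mice 3 of 6 macrophage markers rose and 2 fell, and 2 of 6 lymphocyte and 2 of 4 Schwann cell markers fell. These marker counts stand beside 31.6% of all genes higher and 33.4% lower with cold in control mice. For FAKO mice the shares of all genes were 33.7% and 34.9%. The red blood cell markers summed to 289 to 609 CPM in FAKO mice at 30 °C and to 517 to 1497 after cold, where 5 of 5 rose, against 0 of 5 in control mice. The part of these cells in the synthetase values was not tested, and in whole tissue fewer cells of a type and less RNA per cell cannot be told apart.

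To ask how cold changed the synthetases, control mice after 6 h at 5 °C were compared with control mice at 30 °C. Of the 18 cytosolic enzymes, 14 rose, 2 fell (Mars and Qars) and 2 did not pass the test (Dars and Vars). Both enzymes that serve both compartments rose. Of the 16 mitochondrial enzymes, 5 rose, 5 fell and 6 did not pass the test. Cold moved much of the transcriptome, since 65.0% of all genes tested passed the threshold in control mice, 31.6% higher and 33.4% lower, and in total 28 of the 36 members passed, 21 higher and 7 lower. The median log2 fold change was 1.23 over the cytosolic enzymes and 0.01 over the mitochondrial enzymes, beside -0.01 over all genes tested. A rise past the threshold of at least 2-fold was seen for 11 of the 18 cytosolic enzymes and for 1 of the 16 mitochondrial enzymes. The share of all genes with such a rise was not counted, so these 2 counts have no background beside them.

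**Figure D1:**
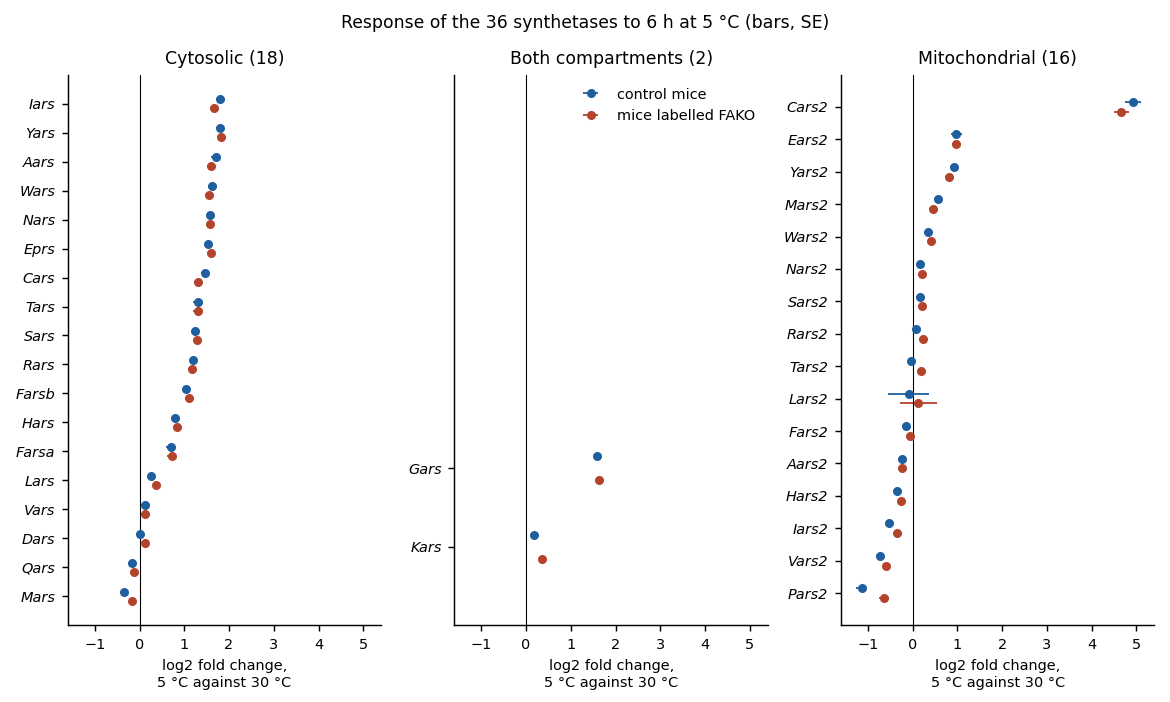
Log2 fold change of each of the 36 synthetases after 6 h at 5 °C against 30 °C (x axis) in control mice (blue) and mice labelled FAKO (red), with bars for the SE from edgeR. The cytosolic enzymes run from -0.34 to 1.79 in control mice, and the mitochondrial enzymes lie between -1.14 and 0.98 apart from Cars2 at 4.93.

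Iars, Yars, Aars and Wars, the cytosolic enzymes for isoleucine, tyrosine, alanine and tryptophan, had the largest rises of the cytosolic group. Iars (chr13:49682100-49734267 in mm10) ran from 20.8 to 27.7 CPM (median 23.9) in control mice at 30 °C and had 81.1, 87.6, 90.4, 75.1 and 84.4 CPM in the 5 control mice after cold. It ran from 20.3 to 30.7 CPM (median 23.3) in FAKO mice at 30 °C and from 65.0 to 90.2 (median 74.5) after cold. Every mouse after cold was above every mouse at 30 °C, and the log2 fold change in control mice was 1.79 (SE 0.09; the edgeR quasi-likelihood test gave a Benjamini-Hochberg adjusted p of 7.78e-15), or 3.47-fold.

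Yars (chr4:129189760-129219607) ran from 22.8 to 32.9 CPM (median 25.9) in control mice at 30 °C, and the 5 control mice after cold had 91.4, 94.5, 94.5, 82.1 and 98.1 CPM. In FAKO mice it went from 23.5 to 26.5 CPM (median 26.1) at 30 °C to 72.8 to 116 (median 84.9) after cold. The groups at 5 °C and 30 °C did not overlap in either genotype, and the log2 fold change was 1.79 in control mice (SE 0.09) and 1.82 in FAKO mice (SE 0.09).

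Aars (chr8:111033144-111057664) had 53.8 to 75.7 CPM (median 63.0) in control mice at 30 °C and 203, 216, 216, 193 and 199 CPM in the control mice after cold. In FAKO mice it had 54.4 to 65.7 CPM (median 62.2) at 30 °C and 149 to 231 (median 184) after cold. The log2 fold change was 1.70 in control mice and 1.60 in FAKO mice (SE 0.09 in each), with no overlap between temperatures. Of its 9282 bases of exon, 15.1% are shared with other genes, among them Exosc6 on the same strand, so some reads of Aars could be counted for either gene.

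Wars ran from 24.7 to 35.0 CPM (median 30.4) in control mice at 30 °C and had 85.1, 89.8, 91.6, 89.3 and 108 CPM in those after cold. In FAKO mice it ran from 27.6 to 34.1 CPM (median 30.8) at 30 °C and from 76.2 to 125 (median 85.3) after cold. Its log2 fold change was 1.63 in control mice (SE 0.10) and 1.55 in FAKO mice (SE 0.09), again without overlap.

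Eprs, a single protein that charges tRNA with glutamate and with proline, had 139 to 167 CPM (median 154) in control mice at 30 °C, and 423, 431, 500.3, 405 and 428 CPM in control mice after cold. In FAKO mice 132 to 153 CPM (median 147) at 30 °C stood against 368 to 502 (median 429) after cold. As log2 values the rise was 1.53 in control mice (SE 0.07) and 1.59 in FAKO mice (SE 0.07).

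The remaining cytosolic enzymes that rose did so by less in most cases. In control mice the log2 fold change was 1.59 for Nars (asparagine), 1.47 for Cars (cysteine), 1.30 for Tars (threonine), 1.25 for Sars (serine) and 1.21 for Rars (arginine). Farsb and Farsa, the subunits of the cytosolic phenylalanine enzyme, rose unequally, by 1.05 (SE 0.07) and 0.70 (SE 0.10). Hars, for histidine, went from 30.4 to 41.6 CPM (median 33.7) to 62.6, 60.7, 58.3, 57.5 and 63.4 CPM in control mice, and from 32.1 to 35.9 (median 34.6) to 53.0 to 79.2 (median 60.1) in FAKO mice. Its temperatures did not overlap, and the rise in control mice was 0.80 as a log2 value (SE 0.08). Lars, for leucine, rose by 0.26 (adjusted p = 0.00298 in edgeR, SE 0.07), with mice of the 2 temperatures overlapping, and this call ended with library size alone (log2 fold change 0.14) or upper-quartile factors (0.16) as the scaling and without the 10 libraries with muscle markers over 1000 CPM (0.21). Gars, for glycine, rose by 1.58 (SE 0.07), and Kars, for lysine, by 0.18 (SE 0.06), a call that also ended in these 3 settings (0.06, 0.07 and 0.08).

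Mars, the cytosolic methionine enzyme, fell in control mice. It had 50.6 to 62.6 CPM (median 56.0) at 30 °C and 43.6, 38.6, 52.0, 43.9 and 48.2 CPM after cold, and in FAKO mice 50.9 to 59.1 (median 54.3) and 45.6 to 52.6 (median 47.4). The groups overlapped in both genotypes, with log2 fold changes of -0.34 (adjusted p = 8.04e-05 in edgeR, SE 0.07) in control mice and -0.16 (adjusted p = 0.0177 in edgeR, SE 0.06) in FAKO mice. The call in FAKO mice ended without the 10 libraries high in muscle markers (-0.16, adjusted p = 0.105 in edgeR). Qars, for glutamine, had -0.17 (SE 0.05) in control mice and -0.11 (SE 0.05) in FAKO mice, where the call was lost with DESeq2's test or size factors (-0.10 in each), with no filter (-0.12), without the libraries high in muscle markers (-0.15) and without mouse 22, 23 or 27 (-0.11 in each case). Dars, for aspartate, had a log2 fold change of 0.01 (SE 0.08), whose sign turned under several settings, and Vars, for valine, one of 0.13 (SE 0.10). Vars counts overlapped throughout, at 18.4 to 27.0 CPM (median 19.1) in control mice at 30 °C, 21.9, 22.4, 19.7, 21.7 and 27.4 in control mice after cold, and 19.6 to 24.6 (median 21.6) and 18.5 to 30.8 (median 23.4) in FAKO mice.

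The enzymes of the multi-synthetase complex differed among themselves. Among its 7 cytosolic-only members in the list, Eprs, Iars, Rars and Lars rose, Mars and Qars fell and Dars did not pass the test, and their median log2 fold change in control mice was 0.26. Outside the complex, 10 of 11 cytosolic enzymes rose and the median was 1.30. In FAKO mice the medians were 0.36 and 1.30. Whether the complex and the other enzymes differ was not tested. Of the scaffold genes, Eef1e1 rose by 1.65 (SE 0.15) and Aimp1 by 0.67 (SE 0.07), and Aimp2 had 0.37 (adjusted p = 0.108 in edgeR, SE 0.20). The enzymes also fall into a pair of structural classes, I and II, with 1 of each joined in Eprs, which was left out of this count. Of the 9 mitochondrial class I enzymes 5 rose and 2 fell in control mice, and of the 7 of class II 0 rose and 3 fell, beside 31.6% and 33.4% of all genes. In FAKO mice 6 of class I rose and 2 fell, and 3 of class II rose and 3 fell. In control mice class I and class II cytosolic enzymes had like medians of 1.21 and 1.15.

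Promoters were examined for the letters TGATGNAA, the core of the element that Atf4 binds with C/EBP proteins, on both strands. RefSeq windows (GRCm38.p6, from 250 bases before to 50 after a start) were matched for 27 of the 36 members: 11 cytosolic, both of both compartments and 14 mitochondrial. The windows of Aars, Cars2, Gars, Iars, Tars and Yars are shown from 150 bases before to 30 after the start because 5 of them hold the motif and Cars2 had the largest rise without it. Capitals mark each match on either strand. The stretch shown for Yars lies at chr4:129189753-129189932 (plus strand), for Iars at chr13:49681980-49682159 (plus strand) and for Aars at chr8:111033692-111033871 (plus strand). For Tars it lies at chr15:11399629-11399808 (minus strand), for Gars at chr6:55037851-55038030 (plus strand) and for Cars2 at chr8:11550742-11550921 (minus strand).
Yars: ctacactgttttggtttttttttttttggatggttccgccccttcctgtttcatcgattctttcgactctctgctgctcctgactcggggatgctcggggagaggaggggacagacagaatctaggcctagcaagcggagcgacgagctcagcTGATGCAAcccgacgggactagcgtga
Iars: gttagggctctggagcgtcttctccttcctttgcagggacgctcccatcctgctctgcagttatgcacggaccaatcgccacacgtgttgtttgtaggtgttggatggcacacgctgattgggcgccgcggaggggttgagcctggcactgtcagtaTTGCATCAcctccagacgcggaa
Aars: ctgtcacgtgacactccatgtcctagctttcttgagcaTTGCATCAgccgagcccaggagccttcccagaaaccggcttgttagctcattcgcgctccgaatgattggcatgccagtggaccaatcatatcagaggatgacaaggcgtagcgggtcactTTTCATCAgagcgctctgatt
Tars: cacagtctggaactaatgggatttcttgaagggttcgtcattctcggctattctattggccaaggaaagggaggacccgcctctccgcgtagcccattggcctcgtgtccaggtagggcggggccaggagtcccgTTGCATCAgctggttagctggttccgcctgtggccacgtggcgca
Gars: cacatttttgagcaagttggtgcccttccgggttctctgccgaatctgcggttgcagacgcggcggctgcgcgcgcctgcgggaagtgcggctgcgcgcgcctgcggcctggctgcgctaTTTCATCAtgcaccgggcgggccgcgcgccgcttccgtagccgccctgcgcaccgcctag
Cars2: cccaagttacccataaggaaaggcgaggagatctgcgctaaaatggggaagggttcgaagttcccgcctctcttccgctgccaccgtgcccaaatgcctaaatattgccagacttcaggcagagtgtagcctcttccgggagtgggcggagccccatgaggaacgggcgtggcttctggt

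The motif was held by 5 of the 27 windows, all from genes of the cytosolic or shared enzymes, against 3.97% of all 32851 promoter windows of this length. With C at the variable base, TGATGCAA, which is contained in the first motif, it was found for 4 members (Aars, Iars, Tars and Yars) and in 0.895% of all windows. In control mice these 5 genes rose with cold by 1.30 to 1.79 on the log2 scale. Of the 8 other windows of cytosolic or shared enzymes, 5 belonged to genes that rose (Eprs, Farsa, Farsb, Kars and Sars), 2 to genes that fell and 1 to Dars, with a median of 0.44. The cytosolic enzymes without a matched window were Wars, Nars, Cars, Rars, Hars, Lars and Vars. They had log2 fold changes of 1.63, 1.59, 1.47, 1.21, 0.80, 0.26 and 0.13 in control mice. Whether the motif goes with the response was not tested. The 14 mitochondrial windows held no match. CACGTG, the E-box, was in the windows of Aars, Ears2, Farsb, Iars and Tars and in 7.15% of all windows, and TGACGTCA was in none of the 27 and in 1.79% of all. A match is a run of letters and not a measured site, and these letters being absent from a window says nothing about the factor.

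Cars2, the mitochondrial cysteine enzyme (chr8:11513977-11550783), had the largest change of the family. It had 11.8 to 18.0 CPM (median 13.4) in control mice at 30 °C, and 420.2, 468, 435, 512 and 374 CPM in the 5 control mice after cold. In FAKO mice it ran from 11.5 to 26.3 CPM (median 15.3) at 30 °C and from 269.6 to 523 (median 424) after cold. No mouse at 30 °C came near those after cold, and the log2 fold change was 4.93 in control mice (adjusted p = 6.2e-18 in edgeR, SE 0.18) and 4.66 in FAKO mice (adjusted p = 5.42e-18 in edgeR, SE 0.17), or 30.4-fold and 25.3-fold. Ranked by log2 fold change, Cars2 was number 39 of the 17286 genes in control mice and number 59 in FAKO mice. Its exons share 422 bases, 5.83% of their length, with Naxd on the other strand, and Naxd rose by 0.30 (SE 0.09) in control mice.

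Cars, the cytosolic cysteine enzyme, had 13.7 to 18.8 CPM (median 15.8) in control mice at 30 °C and 39.1, 45.2, 49.4, 45.6 and 46.4 CPM after cold, and in FAKO mice 14.0 to 17.1 (median 15.5) and 30.9 to 46.3 (median 35.7). It rose without overlap, by a log2 value of 1.47 in control mice (SE 0.09) and 1.30 in FAKO mice (SE 0.09). Per exon length (TPM), Cars and Cars2 had 5.86 ± 2.03 and 4.73 ± 1.62 TPM (SD, n = 7) in control mice at 30 °C. After cold they had 15.2 ± 1.61 and 135 ± 18.5 TPM (SD, n = 5). Cars2 thus made up 1.69% to 3.02% of the summed mitochondrial synthetase level in control mice at 30 °C and 39.3% to 47.9% after cold.

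**Figure D2:**
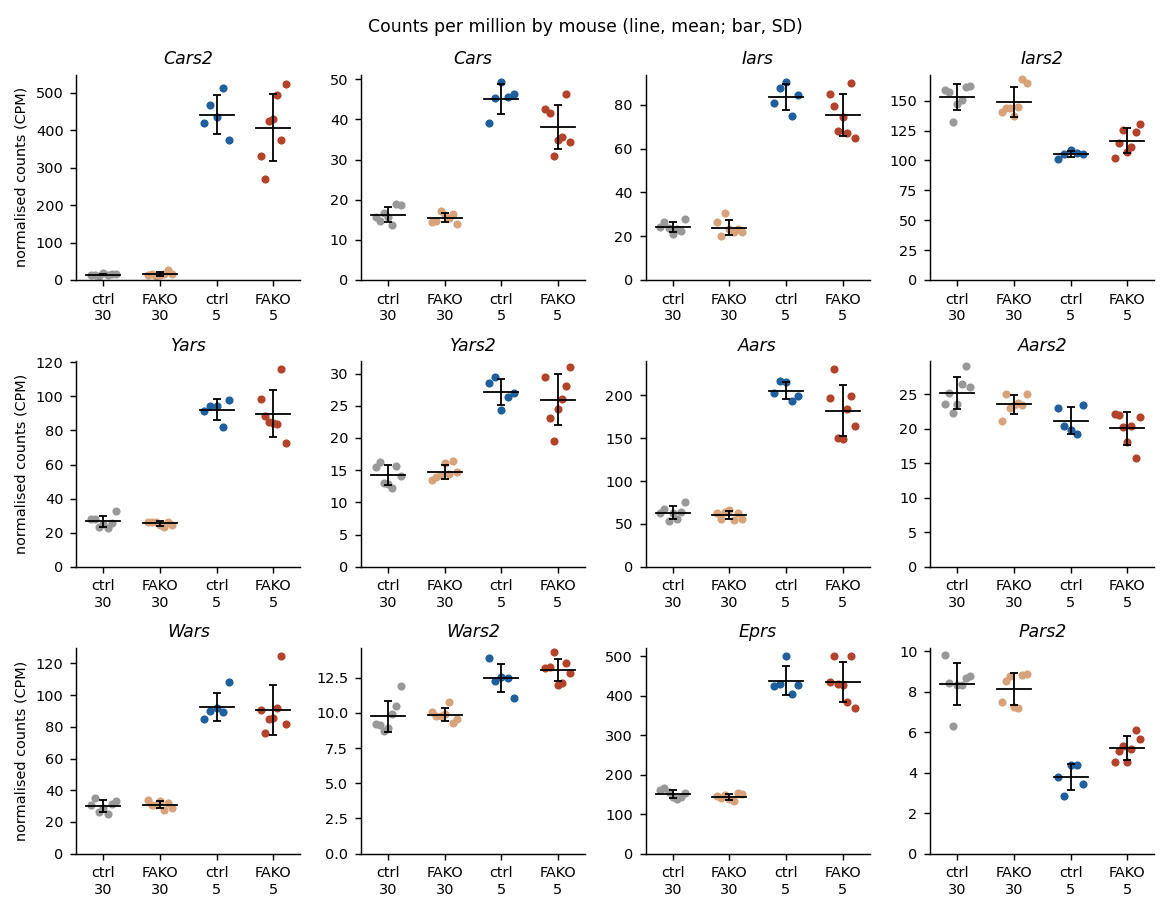
Normalised counts (CPM, y axis from 0) of 12 synthetases in each mouse of the 4 groups, with the mean as a line and the SD as a bar. Cars2 stands at 11.5 to 26.3 CPM in all mice at 30 °C and at 269.6 to 523 in all mice after cold, whereas Iars2, Aars2 and Pars2 are lower after cold.

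Among the other mitochondrial enzymes, Ears2 (glutamate), Yars2 (tyrosine), Mars2 (methionine) and Wars2 (tryptophan) rose in control mice. Ears2 rose by a log2 value of 0.98 (SE 0.12). Yars2 had 12.3 to 16.2 CPM (median 14.0) in control mice at 30 °C and 28.5, 29.5, 24.4, 26.3 and 27.0 after cold, and 13.5 to 16.4 (median 14.4) and 19.5 to 31.0 (median 26.0) in FAKO mice. It did not overlap between temperatures, and its log2 fold change was 0.93 in control mice (SE 0.09), beside 1.79 for Yars.

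Mars2 had 14.0 to 19.2 CPM (median 17.0) in control mice at 30 °C and 23.6, 28.1, 22.6, 21.1 and 27.5 after cold, against 16.0 to 18.0 (median 17.5) and 19.5 to 31.3 (median 23.5) in FAKO mice. All mice after cold were above those at 30 °C. Its log2 fold change of 0.56 (SE 0.10) in control mice stood against -0.34 for Mars, so the methionine pair moved in opposite directions. Wars2 had 8.69 to 11.9 CPM (median 9.21) in control mice at 30 °C and 13.9, 12.3, 12.6, 12.5 and 11.1 after cold, with 9.25 to 10.8 (median 9.79) and 12.0 to 14.3 (median 13.2) in FAKO mice. Control mice overlapped, FAKO mice did not, and the rise was 0.35 in control mice (SE 0.08) and 0.40 in FAKO mice (SE 0.07). It no longer passed the test with library size alone, at 0.21 and 0.08.

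Pars2, Vars2, Iars2, Hars2 and Aars2, the mitochondrial enzymes for proline, valine, isoleucine, histidine and alanine, fell in control mice. Pars2 (chr4:106651069-106655282) had 6.31 to 9.79 CPM (median 8.43) in control mice at 30 °C and 3.80, 2.86, 4.38, 4.37 and 3.46 after cold, and in FAKO mice 7.19 to 8.89 (median 8.52) and 4.53 to 6.13 (median 5.18). Its temperatures did not overlap, and it had a log2 fold change of -1.14 in control mice (adjusted p = 2.15e-09 in edgeR, SE 0.12), a 2.21-fold fall, and of -0.64 in FAKO mice (SE 0.10).

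Vars2 had 23.4 to 32.3 CPM (median 30.3) in control mice at 30 °C and 16.6, 19.9, 17.7, 16.5 and 19.0 after cold, with 28.1 to 30.8 (median 29.5) and 17.0 to 24.2 (median 19.2) in FAKO mice. The temperatures did not overlap within a genotype, and the log2 fold change was -0.73 in control mice (SE 0.08). Iars2 had 132 to 163 CPM (median 158) in control mice at 30 °C and 102, 105, 108, 106 and 106 after cold, and 137 to 169 (median 144) and 102 to 131 (median 115) in FAKO mice. Again no mouse crossed between temperatures, with log2 fold changes of -0.54 (SE 0.07) and -0.36 (SE 0.06). Of the exon bases of Iars2, 24.2% are shared with genes on the other strand, and of those of Vars2, 8.52%. Further members overlap genes on the other strand too, among them Fars2 (10.7%) and Farsb (9.47%). Mars shares 68 bases of exon (1.99%) with Ddit3.

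Hars2 had 30.2 to 37.6 CPM (median 33.3) in control mice at 30 °C and 25.0, 26.5, 27.2, 26.5 and 25.6 after cold, and in FAKO mice 28.1 to 35.7 (median 31.1) and 20.6 to 32.3 (median 25.6). The control groups did not overlap and the FAKO groups did. Its log2 fold change was -0.35 (SE 0.09) in control mice, while Hars, which lies beside it on the other strand and shares 195 bases of exon, rose. Aars2 had 22.3 to 29.1 CPM (median 25.2) in control mice at 30 °C and 23.0, 20.3, 19.9, 19.2 and 23.5 after cold, and 21.1 to 25.1 (median 23.5) and 15.7 to 22.2 (median 20.4) in FAKO mice. These groups overlapped, and the log2 fold change was -0.25 in control mice (adjusted p = 0.00831 in edgeR, SE 0.08).

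The 6 mitochondrial enzymes that did not pass the test in control mice were Nars2, Sars2, Rars2, Tars2, Lars2 and Fars2, with log2 fold changes of 0.17, 0.16, 0.07, -0.05, -0.09 and -0.16. Nars2, Sars2, Rars2 and Tars2 passed it in FAKO mice, at 0.20, 0.20, 0.22 and 0.18, but each of these calls ended under at least 1 other scaling or filter and with 1 mouse left out. Tars2 had 0.13 without mouse 8. Without mouse 9, 12 or 23 Nars2 had 0.16, 0.16 and 0.16 and Rars2 had 0.18, 0.17 and 0.15. Sars2 had 0.14 to 0.20 without mouse 8, 9, 11, 13, 14, 22, 24 or 25. In control mice Nars2 passed without mouse 2, 3 or 17 (0.22, 0.19 and 0.20), Sars2 without mouse 19 (0.23), and Fars2 without mouse 3, 4 or 7 (-0.20, -0.17 and -0.17). Fars2 also passed with library size alone (-0.29), upper-quartile factors (-0.26), at least 10 counts in every mouse (-0.20) or only the groups compared (-0.20), and in FAKO mice under the first 2 of these (-0.39 and -0.23). Tars2 passed in control mice with upper-quartile factors (-0.15). For none of them did the response differ between genotypes at the threshold.

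Lars2, the mitochondrial leucine enzyme (chr9:123366927-123462666), varied far more between mice than any other member. It ran from 45.4 to 273 CPM (median 77.2) in control mice at 30 °C and from 57.5 to 295 (median 96.9) in FAKO mice at 30 °C. After cold the control mice had 188, 62.9, 123, 81.8 and 73.2 CPM, and FAKO mice 68.4 to 239 (median 140.4). All 4 groups overlapped, and the log2 fold change with cold in control mice was -0.09 with an SE of 0.46, against SEs of 0.05 to 0.18 for the other members. A transcript of Lars2 shares a run of 72 aligned bases at 98.6% identity with one of Gm15564, a gene model on another chromosome, so reads of that stretch could be assigned to either or dropped. Gm15564 ran from 3.17 to 26.5 CPM, and in all 4 groups the mouse with the highest Lars2 value also had the highest Gm15564 value. This gene was compared after its values were seen, and Lars2 is uncertain here.

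**Figure D3:**
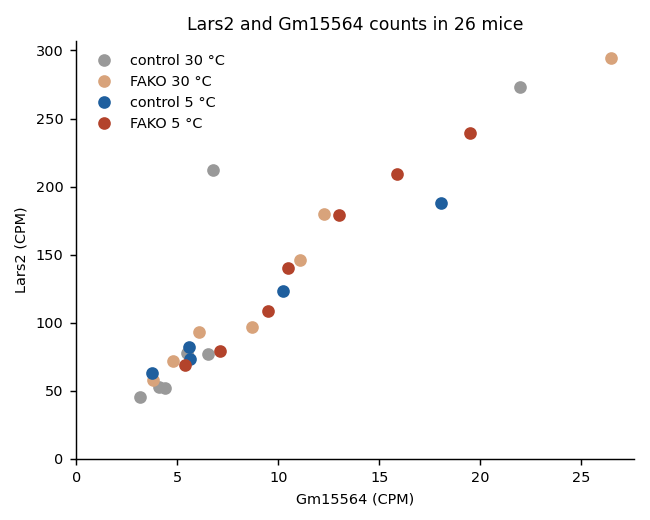
Lars2 counts (CPM, y axis) against Gm15564 counts (CPM, x axis), 1 point for each of the 26 mice, coloured by group. Lars2 runs from 45.4 to 295 CPM and Gm15564 from 3.17 to 26.5, and the mice with high values come from all 4 groups.

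To set both compartments side by side, 16 pairs of a cytosolic and a mitochondrial enzyme for the same amino acid were formed, with Eprs used for glutamate and for proline and Farsa for phenylalanine. The cytosolic enzyme had the larger log2 fold change in 14 of 16 pairs in control mice and in 14 of 16 in FAKO mice, with a median difference of 1.11 and 1.05 on the log2 scale. The exceptions were cysteine and methionine. Per exon length, the cytosolic enzyme had the higher median level in 11 of 16 pairs in control mice at 30 °C and in 14 of 16 after cold, and in 11 and 13 of 16 in FAKO mice.

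The ratio of Iars to Iars2 per exon length ran from 0.235 to 0.305 in control mice at 30 °C and from 1.20 to 1.41 after cold, and Iars was below Iars2 in every control mouse at 30 °C and above it in every one after cold. Vars to Vars2 went from 0.592 to 0.822 to 1.08 to 1.41 and Rars to Rars2 from 0.674 to 0.903 to 1.49 to 2.02. Cars to Cars2 moved the other way, from 0.959 to 1.56 to 0.0980 to 0.136. Mars to Mars2 fell from 10.4 to 13.0 to 4.52 to 7.60, with Mars remaining the higher. The lengths are unions of annotated exons, so a ratio between genes depends on which exons are used. The lengths cancel in its change with temperature only if the same exons are used at both temperatures, which was not tested.

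**Figure D4:**
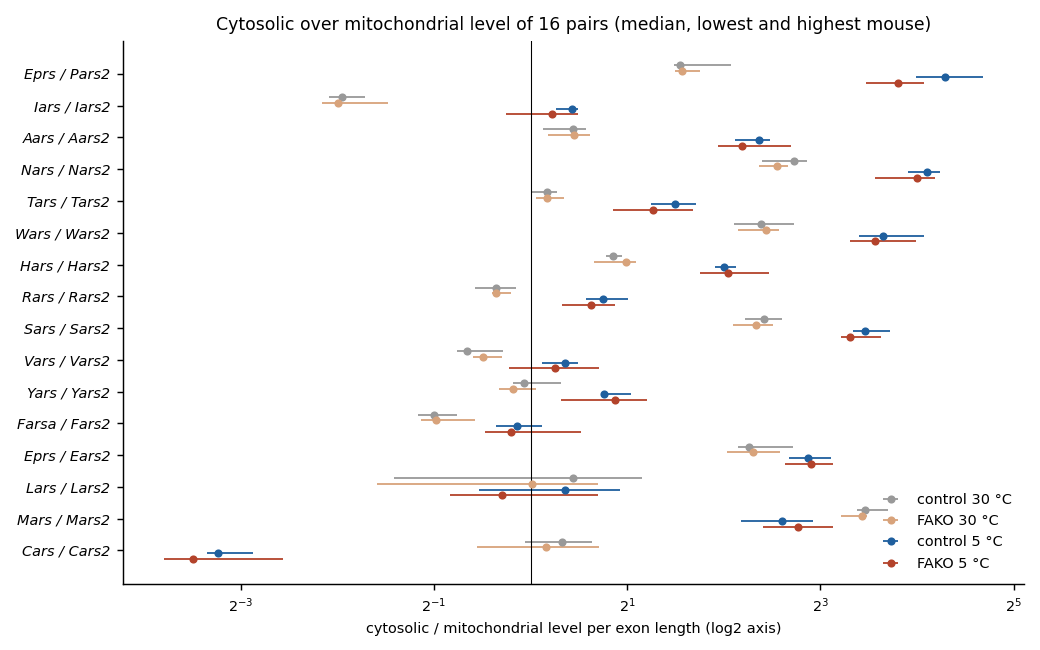
Ratio of the cytosolic to the mitochondrial level per exon length (log2 axis) for 16 pairs, with the median as a point and the lowest and highest mouse as a line, in the 4 groups. Of the 16 pairs, 14 have a larger log2 fold change of the cytosolic enzyme in control mice, and Cars to Cars2 falls from a median of 1.25 to 0.106.

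The summed level of the 18 cytosolic enzymes was 1.67 to 2.17 times that of the 16 mitochondrial enzymes in control mice at 30 °C (median 1.98) and 2.18, 2.39 and 2.75 times at the lowest, median and highest of the 5 control mice after cold. In FAKO mice it was 1.66 to 2.10 times at 30 °C (median 1.86) and 1.92 to 2.90 after cold (median 2.21), so the temperatures overlapped there. In control mice they did not overlap, but only by the step from 2.17 to 2.18. Cars2 is part of the second sum. Without Cars2 and Lars2 the ratio was 2.14 to 2.38 at 30 °C (median 2.23) and 4.63 to 4.98 after cold (median 4.72). In FAKO mice this ratio was 2.14 to 2.33 at 30 °C (median 2.24) and 3.82 to 5.25 after cold (median 4.60). Cars2 and Lars2 were left out after their values were seen, and no cytosolic enzyme was left out.

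Next, mice labelled FAKO were compared with control mice to ask whether the deletion changed the synthetases or their response. In FAKO mice 32 of the 36 members passed the test with cold, 25 higher and 7 lower, when 68.6% of all genes did, 33.7% higher and 34.9% lower. Of these, 14 cytosolic and 9 mitochondrial enzymes rose, and the medians were 1.23 for cytosolic and 0.19 for mitochondrial enzymes, beside -0.03 over all genes tested. All 28 members called in control mice were also called in FAKO mice in the same direction. With library size alone the median over all genes moved by -0.32 in FAKO mice, 27.8% of the genes called were higher in place of 49.1%, and the members called were 17 higher and 9 lower.

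At 30 °C, 0 of 36 members differed between genotypes in edgeR's test, where 0.0810% of all genes did. In that test 0 had an unadjusted p under 0.05, against 7.65% of all genes. DESeq2's Wald test also called 0, where it called 0.278% of all genes. Apart from Lars2, the log2 fold changes were all within 0.15 of 0. After cold 0 of 36 passed in edgeR's test (0.139% of all genes), and 3 had an unadjusted p under 0.05 (13.4% of all genes). DESeq2 called 1, where it called 1.14% of all genes. For the difference of the cold responses 0 of 36 passed in edgeR's test (1.16% of all genes). There 3 had an unadjusted p under 0.05 (16.2% of all genes), and DESeq2 called 0, where it called 2.82% of all genes.

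Pars2 was the member called by DESeq2. The 7 FAKO mice after cold had 4.53 to 6.13 CPM and the 5 control mice 2.86 to 4.38, without overlap, while at 30 °C the genotypes overlapped. The log2 fold change after cold was 0.46 (SE 0.12), with an adjusted p of 0.0946 from edgeR and 0.035 from DESeq2, and the cold responses differed by 0.50 (adjusted p = 0.101 in edgeR, SE 0.15). The other members with an unadjusted p under 0.05 after cold were Cars, at -0.25 (adjusted p = 0.235 in edgeR, SE 0.09), and Iars2, at 0.14 (adjusted p = 0.341 in edgeR, SE 0.07). For the difference of the responses they were Kars, at 0.17 (adjusted p = 0.297 in edgeR, SE 0.08), and Tars2, at 0.22 (adjusted p = 0.183 in edgeR, SE 0.09). Cars2 had -0.12 (SE 0.16) after cold, and its response differed by -0.27 (adjusted p = 0.584 in edgeR, SE 0.22).

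Other genes of translation and of the amino acid response were then examined, against 31.6% of all genes higher and 33.4% lower with cold in control mice. Of 23 genes of the Atf4 and amino acid response, 17 rose and 4 fell with cold in control mice, with a median log2 fold change of 1.75. Atf4 rose from 50.1 to 91.5 CPM at 30 °C to 313 to 363 after cold (log2 fold change 2.18, SE 0.15). Slc3a2, the heavy chain shared by several amino acid transporters, rose from 22.4 to 29.0 CPM to 274 to 306 (3.48, SE 0.08). Mthfd2, an enzyme of mitochondrial one-carbon metabolism, rose by 3.95 (SE 0.27), the cationic amino acid transporter Slc7a1 by 3.23 (SE 0.22), and Slc7a5, the large neutral amino acid transporter, by 3.17 (SE 0.28). Members of the same list that fell included Phgdh and Psph, enzymes of serine synthesis, at -0.74 (SE 0.13) and -0.68 (SE 0.12). Ddit3 had -0.18 (SE 0.19). Of the eIF2 kinases and phosphatase subunits 3 of 6 rose and 2 fell, with Ppp1r15b, a subunit that directs dephosphorylation of eIF2, at 1.25 (SE 0.14) and the kinase Eif2ak4, also called Gcn2, at -0.21 (SE 0.08).

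Of 15 cytosolic initiation genes 13 rose and 2 fell, with a median of 0.85. Eif2b3, a subunit of the exchange factor of eIF2, rose by 1.86 (SE 0.07), while Eif4ebp1, a repressor of the cap-binding protein, fell (log2 fold change -1.21, SE 0.12). All 6 cytosolic elongation genes rose, with a median of 0.36. Of 10 mitochondrial translation factors 4 rose and 2 fell, in all a share near the 65.0% of all genes, with a median of 0.13. The elongation factor Gfm1 had 1.01 (SE 0.07) and the release factor Mtrf1 -1.15 (SE 0.11). Of 13 other genes of tRNA charging and editing 3 rose and 8 fell, with a median of -0.32. Here Dtd1, a deacylase that clears D-amino acids from tRNA, had -1.30 (SE 0.13). Of the 4 Myc genes 1 rose and 2 fell, and Mycl had -2.84 (SE 0.34).

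**Figure D5:**
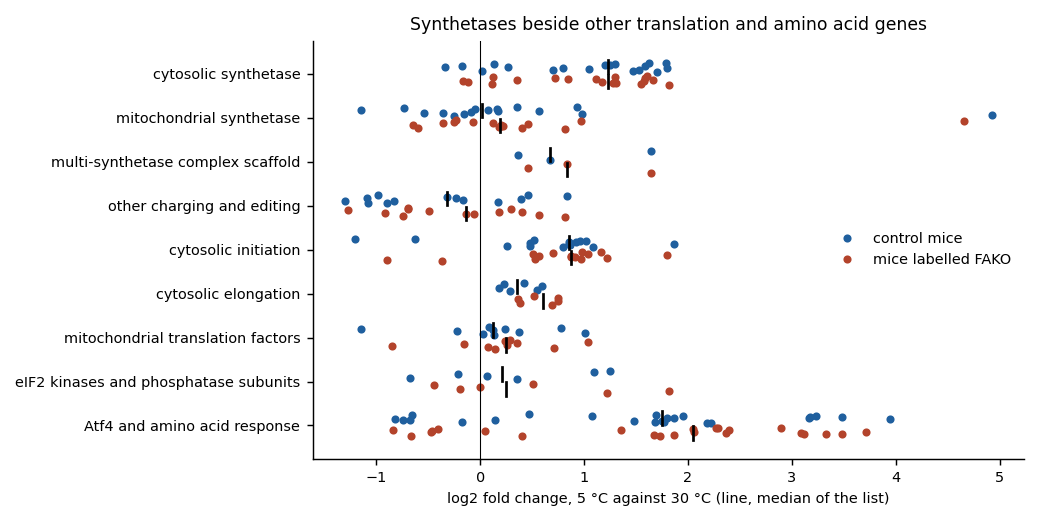
Log2 fold change after 6 h at 5 °C (x axis) of single genes in lists of translation and amino acid genes, in control mice (blue, upper row of each list) and mice labelled FAKO (red, lower row), with the list's median as a line. Medians in control mice are 1.23 for cytosolic and 0.01 for mitochondrial synthetases, 0.85 for initiation genes and 1.75 for the Atf4 list.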

How the data were processed

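RNA was sequenced from BAT (supraclavicular in the labels) of 26 male mice as stranded, rRNA-depleted, single-end libraries. The authors aligned reads to mm10 with STAR 2.5.2b, counted them per gene with featureCounts 1.5.2 and deposited the counts without normalization. The strand setting of the counting was not given in the sources used here. The temperature of thermoneutrality, 30 °C, is that of the labels, and the study's methods give one that is 1 °C lower. Groups came from the labels, and all 26 columns were used. The mice at 30 °C are numbered up to 14, and the control mice after cold 16, 17, 18, 19 and 21. Why numbers are missing in that group was not given in the sources used here.

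Counts were analysed in R 4.3.3 with edgeR 4.0.16 (filterByExpr by group, TMM factors, legacy quasi-likelihood test, 1 term for each of the 4 groups). The p-values were adjusted by Benjamini-Hochberg over all 17286 genes with a threshold of 0.05. CPM are scaled by TMM, and TPM were computed from exon unions of GENCODE M21, where 50376 of 50686 genes had a symbol. The contrasts were cold in either genotype, genotype at either temperature, and their interaction. The p-values measure the spread between mice, and all 73 pairs of mice in a group differed by more than sampling noise (lowest chi-square per gene 5.13). The steps were also run on simulated data in which a small set of genes changed with cold alike in both genotypes. Far fewer genes changed there than in these data, and no genotype effect was simulated. The run therefore does not bear on the scaling or on the power of the genotype tests.

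Values by mouse are given for the 5 largest rises and 5 largest falls with cold in control mice past the threshold, for any member called between genotypes, and for the partner of each in an amino acid pair. From other lists at most 4 genes are named, chosen by size. Atf4, Phgdh, Psph, Ddit3, Eif2ak4, Eef1e1 and Aimp2, the markers and the genes beside Cars2 were named after their values were seen. The members and lists were chosen with earlier results of these data known. Alternatives were DESeq2 1.42.0, 3 other scalings, other filters, other settings of the edgeR test, only the groups compared and leaving out each mouse.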

Additional observations from a re-analysis of the deposited data

Results flagged for a closer look

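Of 144 combinations of a synthetase and a group, 10 held 1 mouse that stood apart from the rest of its group by Dixon's ratio on log2 CPM, where chance gives about 5%. Mouse 3, a control mouse at 30 °C, was the lowest of its group for Pars2 (6.31 CPM, the others 8.34 to 9.79), Tars2 (32.2 CPM, the others 38.3 to 40.9) and Vars2 (23.4 CPM, the others 29.0 to 32.3). Mouse 27, a FAKO mouse after cold, was the highest for Kars (98.9 CPM, the others 75.5 to 80.4) and Wars (125 CPM, the others 76.2 to 91.8). Cars2 was highest in mouse 13 among FAKO mice at 30 °C (26.3 CPM, the others 11.5 to 16.1). Eprs was highest in mouse 18 among control mice after cold (500.3 CPM, the others 405 to 431). Sars2 was lowest in mouse 19 of that group (7.48 CPM, the others 9.79 to 10.2). Vars was highest in mouse 7 among control mice at 30 °C (27.0 CPM, the others 18.4 to 21.3), the library with the lowest share of mitochondrial counts (14.3%) and 5137 CPM of muscle markers. Vars2 was highest in mouse 24 among FAKO mice after cold (24.2 CPM, the others 17.0 to 19.7).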

How the results depend on the processing

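Of 1827 alternative values of 78 synthetase results, 1734 kept their direction and their side of the threshold, 49 lost the call, 15 gained it and 29 changed sign, and the 29 belonged to members with small changes. The members called with cold stayed between 28 and 30 in control mice and between 29 and 32 in FAKO mice when 1 mouse was left out, and the members called between genotypes stayed at 0, except that DESeq2 called 1 after cold. No paired analysis was possible because the groups share no replicate numbers.

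The scaling mattered most. Library size alone moved the median of all genes by -0.13 in control mice and -0.32 in FAKO mice, and upper-quartile factors by -0.11 and -0.16. The cytosolic median was then 1.10 and 1.12 in control mice and 0.92 and 1.07 in FAKO mice. The mitochondrial median was -0.11 in control mice with library size alone, and -0.14 and 0.029 in FAKO mice with the same 2 scalings. Leaving out 1 mouse gave mitochondrial medians from -0.023 to 0.13 in control mice, the highest without mouse 1, and cytosolic medians from 1.20 to 1.25.

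With library size alone the sign changed in control mice for Dars (-0.10), Rars2 (-0.052) and Vars (-0.0097), and in FAKO mice for Dars (-0.20), Lars2 (-0.21), Nars2 (-0.11), Rars2 (-0.088), Sars2 (-0.12), Tars2 (-0.15) and Vars (-0.20), and the difference of the responses of Kars became -0.031. With upper-quartile factors it changed for Dars (-0.091) and Rars2 (-0.031) in control mice and for Dars (-0.033), Lars2 (-0.043) and Vars (-0.045) in FAKO mice. Dars in control mice was -0.028 with at least 10 counts in every mouse, -0.029 with only the groups compared and -0.085 without the 10 libraries high in muscle markers, a setting chosen after seeing the data, and ran from -0.058 to 0.060 without 1 mouse. Lars2 ran from -0.40 to 0.30 in control mice and from -0.037 to 0.41 in FAKO mice without 1 mouse. Apart from the scalings, the cause of these shifts was not tested. Counts of 41 or more per member and mouse limit small changes of the lowest members, such as Pars2.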

Other observations

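Other genes beside Cars2 on chromosome 8 were looked at after its values were seen. In control mice Ing1 rose with cold by 1.67 (SE 0.10) and Rab20 by 1.79 (SE 0.24) on the log2 scale, while Ankrd10 had -0.59 (SE 0.09). In FAKO mice the same genes had 1.44, 2.10 and -0.69. None of these 3 rose as far as Cars2, at 4.93 and 4.66.

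Mitochondrial tRNA genes were counted at low levels. Of 14 with enough counts to be tested, 1 fell and 0 rose in control mice, and 1 rose and 1 fell in FAKO mice, as called by edgeR. The same test called 65.0% and 68.6% of all genes. In control mice 1 of the 14 had an unadjusted p under 0.05 and in FAKO mice 3 did, against 67.9% and 70.9% of all genes.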
